A study of Mus musculus with 38 samples.

Results

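c-Fos binding after depolarisation was mapped in the same neurons with 2 antibodies, sc52 and sc7202, and the peaks found by both, by sc52 alone and by sc7202 alone are described here. The 4 libraries compared, of 38 in the series, were chosen by their labels as KCl-stimulated c-Fos ChIP-seq (chromatin immunoprecipitation followed by sequencing) with either antibody. They came from biological samples 3 and 4, called cultures 3 and 4 here, with 1 library per antibody and culture. All were cortical neurons of C57BL/6 mouse embryos of day 16.5, kept in culture for 7 days. Activity was first blocked overnight with 1 µM TTX, which blocks sodium channels, and 100 µM DL-AP5, which blocks NMDA receptors, and the neurons were then given KCl for 2 h. Other lists served as annotation: c-Fos (both antibodies) in silenced neurons of cultures 3 and 4, FosB (antibody sc48) after KCl in both, and JunB (antibody sc46) after KCl in culture 4. Neurons of cultures 5 and 6 carried either a control shRNA or the c-Fos shRNA, were also given KCl, and had c-Fos mapped with sc52. FosB was mapped in their control shRNA neurons. No sc7202 library of shRNA-infected neurons was analysed here. The cultures were dissociated cortex, whose glial content the labels do not give, and peak lists offer no marker by which to check the cell type.

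c-Fos is an immediate early gene product that depolarisation induces in neurons. It binds DNA only as a pair with a Jun protein such as JunB, and such Fos-Jun pairs, together called AP-1, recognise a short palindromic motif found in many distal enhancers. FosB is a close relative of c-Fos and can take its place in the pair. A ChIP-seq peak list depends on the antibody as well as on the protein, because an antibody can miss its epitope at some sites and can bring down DNA at sites the protein does not occupy. For that reason studies set a second antibody against another region of the protein, a silenced condition or a knockdown beside the first. H3K27ac, acetylation of histone H3 at lysine 27, marks active promoters and enhancers, and CBP is a co-activator that acetylates this residue.

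Both antibodies gave more sites after KCl than in silenced neurons, but they ranked in opposite orders in the 2 conditions. After KCl, sc52 gave 22368 peaks in culture 3 and 6808 in culture 4, while sc7202 gave 28885 and 16270. The sc7202 list was thus 1.29 times as long in culture 3 and 2.39 times as long in culture 4. In silenced neurons it was shorter: 1770 peaks against 3669 for sc52 in culture 3, and 557 against 1891 in culture 4. The log2 ratio of sc7202 to sc52 peak number averaged 0.81 ± 0.63 (SD, n = 2 cultures) after KCl and -1.41 ± 0.50 (SD, n = 2) in silenced neurons. With the sign of each culture's difference flipped, the exact two-sided permutation test gave p = 0.5 for each, the smallest value 2 pairs allow. Without reads the depth of each library is unknown, and the antibody and the depth cannot be told apart in the length of a list. Intervals on shares of sites in the following are 95% Wilson intervals, which cover counting error only.

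The score ranks the peaks of 1 list by their p-value, and the lowest score kept in these lists was 50. Of the peaks of sc52, 73.3% in culture 3 and 72.3% in culture 4 shared at least 1 bp with a sc7202 peak (mean 72.8% ± 0.71, SD, n = 2). Of the peaks of sc7202, 56.5% and 30.3% shared at least 1 bp with a sc52 peak (mean 43.4% ± 18.5, SD, n = 2). When both lists were cut by score to the length of the shorter, 66.2% of 22368 sc52 peaks in culture 3 and 54.7% of 6808 in culture 4 had a sc7202 partner. For scale, the lists of 1 antibody were set against each other across cultures in the same way. Then 64.3% of 16270 sc7202 peaks and 55.6% of 6808 sc52 peaks of culture 3 had a partner in culture 4. At 6808 peaks, the antibodies within culture 4 and the cultures under sc52 thus shared nearly the same percentage.

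Overlapping peaks of both antibodies within a culture were joined into sites, 34764 in culture 3 and 18133 in culture 4. Sites with both antibodies made up 16214 (46.6%) in culture 3 and 4909 (27.1%) in culture 4. Sites with sc52 alone were the smallest class, with 5981 (17.2%) and 1889 (10.4%). Sites with sc7202 alone numbered 12569 (36.2%) and 11335 (62.5%), the largest class in culture 4. Shared sites span the peaks of both antibodies and were the widest, with medians of 753 bp in culture 3 and 894 bp in culture 4. The medians were 572 and 799 bp for sc52 alone and 582 and 698 bp for sc7202 alone. The part of this width in the overlaps of shared sites with other lists was not tested.

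The sc7202 list behaved as a ranked list with a shared top. Of its best-scoring 10%, 99.3% in culture 3 and 89.6% in culture 4 were also in the sc52 list, and of its lowest-scoring 10% only 22.6% and 7.20% were. The sc52 list of culture 4 ran against this order. There, only 48.9% of the best-scoring 10% had a sc7202 partner, fewer than the 76.7% of the next 10% and the 64.6% of the lowest. In culture 3 the best-scoring 10% of sc52 peaks were shared at 86.5% and the lowest at 49.3%.

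**Figure D1:**
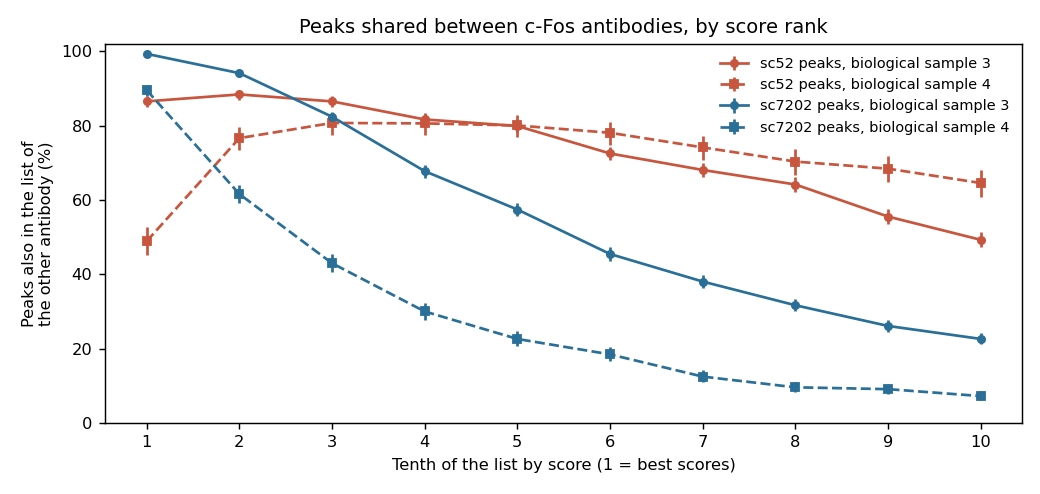
Share of peaks (%) also found with the other c-Fos antibody in the same culture (biological sample), in steps of 10% of the list in order of score, with Wilson 95% intervals as bars. The sc7202 lines fall from 99.3% and 89.6% in their best-scoring 10%, while the sc52 line of biological sample 4 starts at 48.9% and climbs to 76.7% in the next 10%.

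The ranks of the unshared peaks differ accordingly. With 0 as the best and 100 as the worst place in a list, sites with sc7202 alone had a median rank of 70.3 in culture 3 and 61.5 in culture 4, against 30.7 and 19.99 for shared sites in the same lists. Sites with sc52 alone had a median rank of 69.3 in culture 3, against 42.5 for shared sites. In culture 4 the corresponding medians were 53.0 and 49.3, so the sc52-alone sites there were spread along the whole list. Part of each unshared class lay just over the threshold: the score was under 60 for 35.1% and 31.4% of sc52-alone sites and for 33.1% and 30.1% of sc7202-alone sites. Few were displaced neighbours of a shared site, since 4.90% and 1.01% of sc52-alone sites and 4.11% and 1.24% of sc7202-alone sites lay within 1000 bp of one.

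Where both antibodies found a site, they placed it at nearly the same point. At shared sites with 1 peak of each antibody, the peak centres were a median of 51.5 bp apart in culture 3 and 59.5 bp in culture 4. Of these pairs, 94.4% and 94.7% had centres within 200 bp. A shared site was 1 peak of each antibody in 98.4% and 99.4% of cases. The ranks given by the antibodies followed each other loosely, with a Spearman rho of 0.60 across the 16214 shared sites of culture 3 and 0.53 across the 4909 of culture 4. These are descriptions across sites of 1 culture, which share its chromatin.

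The chromatin around the classes differed. H3K27ac peaks after KCl, called on biological samples 1 and 2 merged, were divided into those the authors listed as distal and the rest, called non-distal here, a group in which promoter peaks would fall. Among all joined sites, 21.4% in culture 3 and 12.9% in culture 4 lay in a non-distal H3K27ac peak. Of the sc52-alone sites, 3050 of 5981 in culture 3 did, 51.0% (interval 49.7 to 52.3), and 1003 of 1889 in culture 4, 53.1% (50.8 to 55.3). Of the sc7202-alone sites, 1272 of 12569 did, 10.1% (9.60 to 10.7), and 953 of 11335, 8.41% (7.91 to 8.93). Shared sites lay between them in culture 3, at 19.3%, and were the lowest class in culture 4, at 7.68%. The share of sc52-alone sites averaged 52.05% ± 1.49 (SD, n = 2), that of sc7202-alone sites 9.26% ± 1.21 (SD, n = 2), and the difference was -42.8 percentage points ± 2.70 (SD, n = 2), with exact sign-flip permutation p = 0.5. In both cultures the gap was many times the spread between cultures.

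That gap was smaller among sites with no c-Fos peak in silenced neurons, above all in culture 4. When sites overlapping any c-Fos peak of silenced neurons in culture 3 or 4 were left out, 4527 sc52-alone sites remained in culture 3 and 747 in culture 4. Of those, 41.5% in culture 3 but 9.50% in culture 4 lay in non-distal H3K27ac, and the difference from sc7202-alone sites was -32.1 points in culture 3 and -2.07 in culture 4. The silenced lists used were longer for sc52 (3669 and 1891 peaks) than for sc7202 (1770 and 557). This setting was chosen after the data were seen.

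In distal H3K27ac, sc52-alone sites had the lowest share. Of all joined sites, 18.9% in culture 3 and 22.7% in culture 4 were in a distal H3K27ac peak of KCl neurons. The share was 23.6% and 30.3% of shared sites, 17.2% and 21.5% of sc7202-alone sites, and 9.81% and 10.8% of sc52-alone sites. Peaks of distal H3K27ac found after KCl and not in silenced neurons held 7.41% and 12.5% of shared sites, 4.65% and 6.72% of sc7202-alone sites, and 1.54% and 2.17% of sc52-alone sites. Shared sites therefore had the highest share in stimulus-dependent distal acetylation in each culture, and sc52-alone sites the lowest. Between the unshared classes, sc7202 alone minus sc52 alone, the difference in distal H3K27ac was 9.02 points ± 2.32 (SD, n = 2, exact sign-flip permutation p = 0.5). It was 18.9 points when the c-Fos lists were cut to scores of at least 100 and the sites joined anew. Without the sites of silenced neurons it was 5.39 points.

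Most sc7202-alone sites lay outside any H3K27ac peak. Against 59.7% and 64.4% of all joined sites with no H3K27ac peak after KCl, the share was 72.7% and 70.1% of sc7202-alone sites, 57.1% and 62.0% of shared sites, and 39.2% and 36.1% of sc52-alone sites. The unshared classes differed by 33.8 points ± 0.38 (SD, n = 2, exact sign-flip permutation p = 0.5). Without the sites of silenced neurons the difference was 25.6 points in culture 3 and -2.20 in culture 4, and it averaged 21.9 points in lists of the same length.

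**Figure D2:**
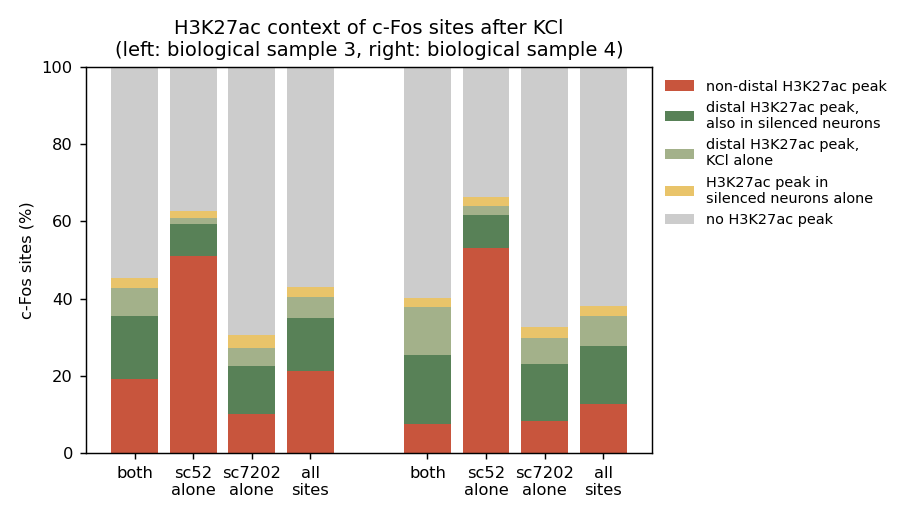
H3K27ac context of c-Fos sites after KCl (share of sites, %), by antibody class, for culture (biological sample) 3 on the left and 4 on the right. Non-distal H3K27ac takes up 51.0% and 53.1% of sc52-alone sites and 10.1% and 8.41% of sc7202-alone sites.

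The silenced lists, the background for the KCl libraries, were set against the classes next. A c-Fos peak of silenced neurons of the same culture, with either antibody, overlapped 9.45% of all joined sites in culture 3 and 8.29% in culture 4. The share was 22.9% and 54.7% of sc52-alone sites, 10.3% and 5.40% of shared sites, and 1.90% and 1.80% of sc7202-alone sites. The difference of sc7202 alone minus sc52 alone was -37.0 points ± 22.6 (SD, n = 2, exact sign-flip permutation p = 0.5), -21.0 in culture 3 and -52.9 in culture 4. Set against the silenced sc7202 list alone, it was -1.87 points in culture 3 and 0.70 in culture 4. That list was short, with 1770 and 557 peaks, which left little room for a difference. It held 2.96% and 0.58% of sc52-alone sites and 1.09% and 1.28% of sc7202-alone sites. The silenced sc52 list held 21.9% and 54.7% of sc52-alone sites.

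The c-Fos shRNA lists, made where the c-Fos mRNA was targeted, were made with sc52, so they share that antibody with one of the classes. A c-Fos peak in neurons with the c-Fos shRNA, in culture 5 or 6, overlapped 17.4% of all joined sites of culture 3 and 17.2% of culture 4. For sc52-alone sites the share was 37.2% and 62.5%, for shared sites 20.8% and 21.9%, and for sc7202-alone sites 3.52% and 7.60%. The unshared classes differed by -44.3 points ± 15.0 (SD, n = 2, exact sign-flip permutation p = 0.5), and by -18.8 in culture 3 and -5.40 in culture 4 without the sites of silenced neurons.

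With the control shRNA the sc52 lists held 63.9% of all joined sites of culture 3 and 79.7% of culture 4. Shared sites were in them at 84.8% and 95.8%, sc52-alone sites at 47.9% and 82.1%, and sc7202-alone sites at 44.4% and 72.4%. A sc7202-alone site was thus often found by sc52 in another culture, but less often than the joined sites as a whole. The difference of sc7202 alone minus sc52 alone, -6.62 points ± 4.40 (SD, n = 2, exact sign-flip permutation p = 0.5), turned to 4.97 in lists of the same length and to 9.74 without the sites of silenced neurons.

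JunB is a partner of c-Fos at AP-1 sites, and its single KCl list came from culture 4. It held 39.1% of all joined sites of culture 3 and 62.3% of culture 4. Shared sites were in it at 59.7% and 92.6%, sc7202-alone sites at 26.05% and 54.95%, and sc52-alone sites at 10.5% and 27.3%. The unshared classes differed by 21.6 points ± 8.52 (SD, n = 2, exact sign-flip permutation p = 0.5). The difference was 32.5 points when all AP-1 lists, JunB included, were cut to scores of at least 100 and the sites joined anew. Without the sites of silenced neurons it was 13.9 points in culture 3 and -2.21 in culture 4.

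FosB, the relative of c-Fos, gave differences of opposite sign in the cultures. The FosB list of the same culture held 24.5% of all joined sites of culture 3 and 18.8% of culture 4. Shared sites were in it at 39.5% and 45.0%. In culture 3 it held 23.7% of sc52-alone sites and 5.43% of sc7202-alone sites, and in culture 4 it held 6.19% and 9.60%. The difference of -18.3 points in culture 3 and 3.40 in culture 4 averaged -7.44 ± 15.3 (SD, n = 2, exact sign-flip permutation p = 1), and with any of the 4 KCl FosB lists without FosB shRNA it averaged 5.21. Without the sites of silenced neurons it was -13.8 in culture 3 and -0.33 in culture 4, so the sign in culture 4 turned.

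The best-scoring sc52 peaks with no sc7202 partner lay mainly in non-distal H3K27ac and seldom overlapped JunB. The top 25% of the sc52 list by score held 701 such peaks of 5593 in culture 3 and 570 of 1702 in culture 4. Of them, 86.9% and 86.1% lay in non-distal H3K27ac, against 27.5% and 9.45% of the top peaks that sc7202 also found. JunB peaks overlapped 11 of the 701 (1.57%) and 24 of the 570 (4.21%), against 74.6% and 96.1% of the shared top peaks. A distal enhancer with CBP and H3K4me1, the latter a histone mark of enhancers, lay in 1 of the 701 and 2 of the 570, against 31.2% and 36.3% of the shared ones.

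Most of the same peaks were present under the c-Fos shRNA and in silenced neurons. With the c-Fos shRNA in culture 5 they were found at 95.4% and 98.1%, and in culture 6 at 72.5% and 98.1%. Shared top peaks were found at 41.8% and 41.1% in culture 5 and at 14.0% and 14.7% in culture 6. The sc52 list of silenced neurons of the same culture held 84.5% and 97.2% of the unpartnered top peaks, against 21.2% and 12.4% of the shared ones. The silenced sc7202 list of the same culture held 12.6% of the 701 and 0 of the 570.

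They recurred with sc52 in other cultures as well. In the control shRNA lists, 94.6% and 98.9% were present in culture 5 and 46.9% and 80.4% in culture 6. Their absence from the sc7202 list was less stable in 1 direction: 51.1% of the 570 of culture 4 overlapped a KCl sc7202 peak of culture 3, while 1.85% of the 701 of culture 3 overlapped one of culture 4. With FosB they were found at 48.4% and 39.5% in culture 3 and at 37.8% and 36.5% in culture 5, but at 0.856% and 2.63% in culture 4 and at 2.14% and 3.86% in culture 6. These FosB lists held 10898 peaks in culture 3, 22933 in culture 5, 4899 in culture 4 and 14139 in culture 6, with median widths of 208, 767, 187 and 254 bp, and the part of either in the shares was not tested.

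Between unpartnered and shared top peaks of sc52, unpartnered minus shared, the mean difference was 68.0 points for non-distal H3K27ac, -82.5 for JunB, 54.5 for either c-Fos shRNA list and -33.5 for distal enhancers. Each had the same direction in both cultures and exact sign-flip permutation p = 0.5, and the comparison was added after the data were seen. Leaving out sites of silenced neurons kept only 93 of the 701 peaks and 12 of the 570. The differences in culture 3 were then 70.9 for non-distal H3K27ac, -81.5 for JunB, 52.2 for the shRNA lists and -36.6 for distal enhancers. In culture 4, with 12 peaks left, they were 4.14, -16.5, -0.14 and -38.7.

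**Figure D3:**
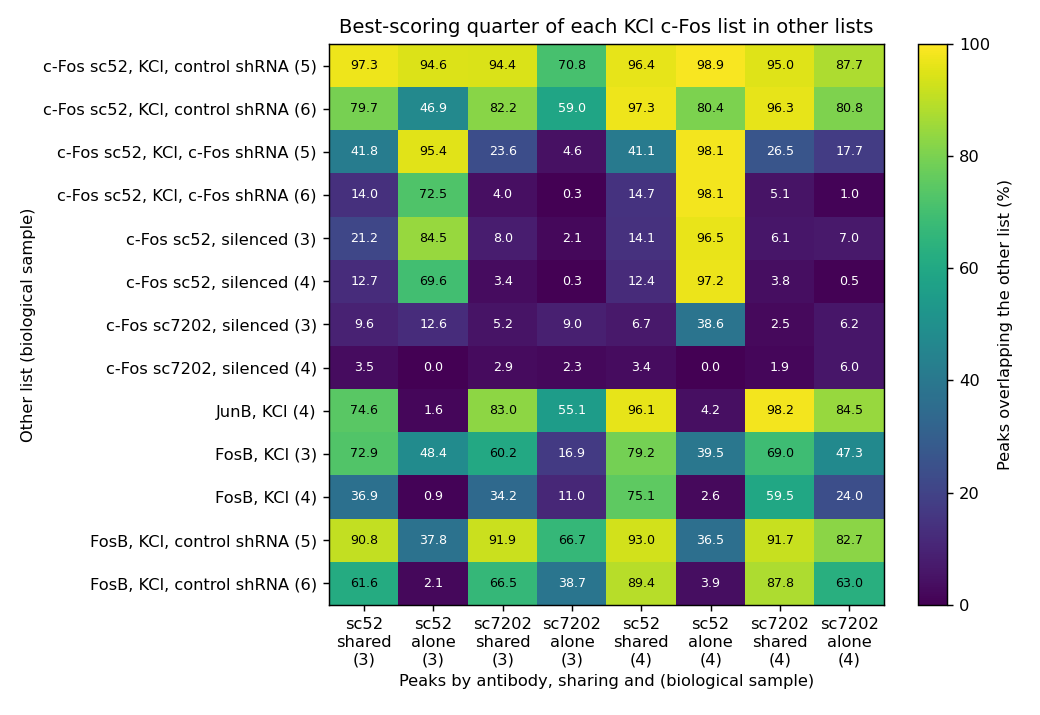
Share (%) of the top 25% of each KCl c-Fos list found in 13 other lists (rows), for peaks shared with the other antibody and peaks with 1 antibody alone, with the culture (biological sample) in parentheses. The sc52-alone columns are high in the c-Fos shRNA and silenced sc52 rows (69.6% to 98.1%) and low in the JunB row (1.57% and 4.21%).

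High-scoring sc7202 peaks without a sc52 partner looked different. The top 25% of the sc7202 list held 390 such peaks of 7221 in culture 3 and 1240 of 4068 in culture 4. Non-distal H3K27ac held 9.74% and 9.76% of them, and 60.5% and 57.8% had no H3K27ac peak after KCl. JunB peaks overlapped 55.1% and 84.5%, and distal enhancers lay in 26.2% and 32.6%, shares near those of shared top sc7202 peaks for enhancers (33.9% and 37.7%) and lower for JunB (83.0% and 98.2%). Either c-Fos shRNA list held 4.87% and 17.8%, and either control shRNA list 80.3% and 95.4%. The authors' combined c-Fos sites, which the labels attach to the sc52 libraries of cultures 3 to 6, lay in 41.3% and 70.8% of these peaks but in 0.571% and 0.877% of the unpartnered top sc52 peaks. They lay in 33.8% of all joined sites of culture 3, and in 58.6% and 73.5% of shared sites of any rank in cultures 3 and 4. At any rank in culture 3, they lay in 11.8% of sc52-alone and 12.4% of sc7202-alone sites. The contrast between the unshared classes was thus not seen there over all ranks. The labels do not say how the combined sites were made. Libraries that define the classes may have gone into them, so presence in the combined list may be partly set by the classes. The contrast is therefore not an independent one.

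Disagreement in rank among shared sites had the same orientation. In culture 3, 449 of 4875 shared sites in the top 25% of the sc52 list were in the lower 50% of the sc7202 list, and in culture 4, 73 of 1131 were. Of these, 83.1% and 46.6% lay in non-distal H3K27ac and 85.5% and 64.4% in a c-Fos shRNA list, and 12.7% and 57.5% in the JunB list. The opposite disagreement, top 25% with sc7202 and lower 50% with sc52, was seen at 1053 of 6821 sites in culture 3 and 931 of 2824 in culture 4. Those lay in non-distal H3K27ac at 9.59% and 6.66%, in a c-Fos shRNA list at 7.88% and 16.5%, and in the JunB list at 69.4% and 96.2%.

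At distal enhancers, sc7202 found more sites than sc52 and missed few that sc52 found. Its lists were also 1.29 and 2.39 times as long in cultures 3 and 4, and the part of list length in this excess was not tested. The authors' list holds 11830 distal positions with CBP and H3K4me1, and 4 classes of these by H3K27ac after KCl. Of 1468 enhancers whose H3K27ac increased, 759 (51.7%) lay in peaks of both antibodies in culture 3, 252 (17.2%) in a sc7202 peak alone and 32 (2.18%) in a sc52 peak alone. In culture 4 these were 393 (26.8%), 417 (28.4%) and 14 (0.954%). Any sc7202 peak held 68.9% and 55.2% of increasing enhancers, and any sc52 peak 53.9% and 27.7%.

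The order of the enhancer classes was the same with each antibody. Over all 11830 enhancers, a sc7202 peak held 47.9% in culture 3 and 33.03% in culture 4, and a sc52 peak 35.7% and 14.4%. With sc7202, increasing enhancers were followed by those with no H3K27ac (47.8% and 32.1%), constant ones (38.0% and 24.2%) and decreasing ones (33.1% and 18.6%). With sc52 the shares were 37.0% and 13.4% for no H3K27ac, 27.2% and 80 of 800 for constant and 20.7% and 7.86% for decreasing enhancers. Enhancers with no H3K27ac were thus close to the share over all enhancers with each antibody. Of non-distal H3K27ac peaks (10862 in all), by contrast, sc52 peaks were in 51.0% in culture 3 and 12.4% in culture 4, and sc7202 peaks in 35.8% and 11.4%.

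**Figure D4:**
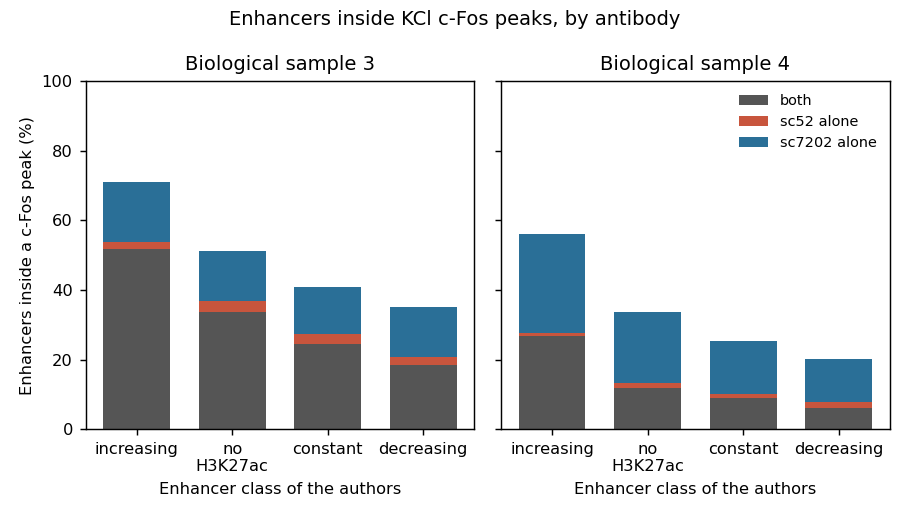
Share (%) of the authors' distal enhancers inside a KCl c-Fos peak of both antibodies, sc52 alone or sc7202 alone, by enhancer class and culture (biological sample). The sc52-alone band does not exceed 3.34% in any class, while sc7202 alone adds 17.2% and 28.4% to the increasing class. The sc7202 lists were 1.29 and 2.39 times as long as the sc52 lists.

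Counted over sites, increasing enhancers lay in 2.93% of all joined sites of culture 3 and 4.41% of culture 4. The share was 4.70% and 7.96% of shared sites, 1.82% and 3.48% of sc7202-alone sites and 0.468% and 0.688% of sc52-alone sites. Any enhancer of the authors' list lay in 16.8% and 21.8% of all sites, 24.1% and 31.4% of shared sites, 13.2% and 20.1% of sc7202-alone sites and 4.78% and 7.52% of sc52-alone sites. The unshared classes differed by 2.08 points ± 1.02 (SD, n = 2) for increasing and 10.5 points ± 2.95 (SD, n = 2) for any enhancers, each with exact sign-flip permutation p = 0.5. With the c-Fos lists cut to scores of at least 100 and the sites joined anew, these differences were 4.94 and 22.1 points. Without the sites of silenced neurons the second was 6.03.

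The FosB, JunB and c-Fos shRNA lists were also read in the other direction, by the c-Fos class their own peaks overlapped. Of the 10898 FosB peaks of culture 3, 63.4% overlapped peaks of both c-Fos antibodies, 15.3% sc52 alone, 6.85% sc7202 alone and 14.4% neither. Of the 4899 of culture 4, these were 48.4%, 2.61%, 22.6% and 26.4%. Of the 19346 JunB peaks, 50.1% overlapped both in culture 3, 3.21% sc52 alone, 16.8% sc7202 alone and 29.9% neither. In culture 4 these were 23.6%, 2.68%, 32.2% and 41.5%, so that JunB peaks met sc7202 alone more often than both. The sc7202-alone class was also the larger there, with 11335 sites against 4909 shared ones. Per site the order was the reverse, with JunB at 54.95% of sc7202-alone and 92.6% of shared sites. Of the 7808 peaks with the c-Fos shRNA in culture 5, 42.5% overlapped both in culture 3, 26.99% sc52 alone, 5.16% sc7202 alone and 25.4% neither. Set against culture 4 they gave 13.4%, 14.9%, 10.7% and 61.0%. Of the 1793 peaks with the c-Fos shRNA in culture 6, 46.1% overlapped both in culture 3, 46.7% sc52 alone, 0.669% sc7202 alone and 6.47% neither. Against culture 4 the shares were 14.2%, 56.6%, 2.96% and 26.3%. Both shRNA lists thus met sc52 alone more often than sc7202 alone in each culture, by a smaller margin for the list of culture 5.

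Sites that fell in the same class in both cultures were then counted. There were 4187 with both antibodies, 669 with sc52 alone and 2481 with sc7202 alone. Of the 669 sc52-alone sites, 513 (76.7%) lay in non-distal H3K27ac, 615 (91.9%) in some c-Fos list of silenced neurons and 560 (83.7%) in both c-Fos shRNA lists. JunB was found at 39 (5.83%), an enhancer of the authors' list at 16 (2.39%) and a FosB peak in any of the 4 lists at 275 (41.1%). Of the 2481 sc7202-alone sites, 109 (4.39%) lay in non-distal H3K27ac, 25 (1.01%) in a c-Fos list of silenced neurons and 0 in both c-Fos shRNA lists. JunB was found at 1220 (49.2%), an enhancer at 441 (17.8%) and a FosB peak in any of the 4 lists at 1499 (60.4%). The FosB list of culture 3 alone gave the opposite order, with 29.3% of the sc52-alone and 7.05% of the sc7202-alone sites, and that of culture 4 held 1.94% and 6.49%. Over all joined sites of cultures 3 and 4, JunB was found at 39.1% and 62.3% and an enhancer at 16.8% and 21.8%. The sc7202-alone shares of 49.2% and 17.8% lay between these. The FosB list of culture 5 alone held 50.6% of all joined sites of culture 3. Either c-Fos shRNA list held 17.4% and 17.2% of all joined sites of cultures 3 and 4. The one of culture 6 alone held 4.89% of those of culture 3. Silenced c-Fos lists of the same culture held 9.45% and 8.29%. Shares of all joined sites in both shRNA lists, in any silenced list or in any of the 4 FosB lists are not given here.

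The sc52-alone sites of both cultures were in either control shRNA list at 95.4% and the sc7202-alone sites at 68.2%. The latter, although missed by sc52 in cultures 3 and 4, were thus mostly found by sc52 in culture 5 or 6. That share was not particular to them, since all joined sites were in either list at 63.9% in culture 3 and 79.7% in culture 4. For the 4187 shared sites the figure was 98.5%, with JunB at 93.9% and FosB in any of the 4 lists at 96.7%. Without the sites of silenced neurons 54 of the sc52-alone class remained. In lists of the same length within each culture 355 sites were of the sc7202-alone class in both, against 2481.

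**Figure D5:**
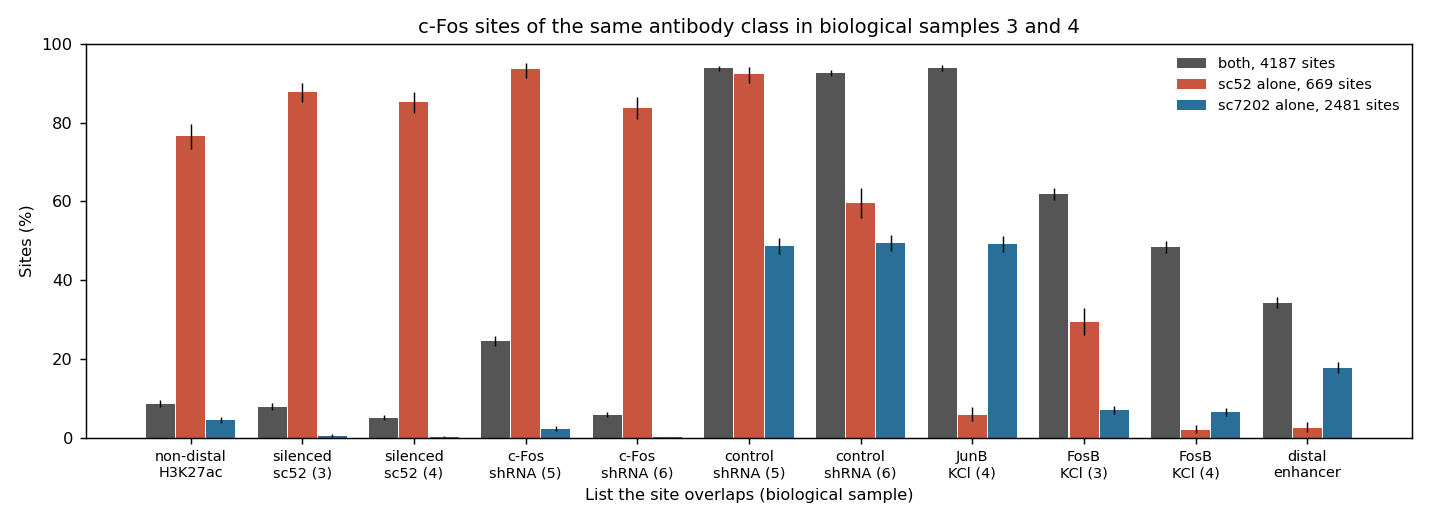
Share (%) of sites of the same antibody class in both cultures (biological samples 3 and 4) that overlap each list, with Wilson 95% intervals and the culture of each list in parentheses. The sc52-alone bars stand at 76.7% for non-distal H3K27ac and 93.6% and 83.9% for the c-Fos shRNA lists, where the sc7202-alone bars stand at 4.39%, 2.30% and 0.0403%.

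Membership of a class changed between cultures more for some classes than for others. Of the shared sites of culture 4, 85.3% were shared in culture 3 as well. Of the sc7202-alone sites of culture 4, 51.2% were shared sites in culture 3, 21.98% were again sc7202 alone and 23.4% were in neither list. Of the sc52-alone sites of culture 4, 37.4% were shared in culture 3 and 35.6% were again sc52 alone. In the other direction, 81.4% of the sc52-alone and 75.8% of the sc7202-alone sites of culture 3 were in neither list of culture 4.

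The 5 sites of each class with the best mean rank show the contrast one by one, in mm9 coordinates. The first shared site, chr17:66310461-66311891, had the score of 3100 in all 4 lists, and the second, chr13:45718774-45719948, had scores from 1699.89 to 3183.45. A score of 3100 was held by several peaks and was the highest in both KCl sc7202 lists, so equal values of 3100 are ties. Another shared site, chr13:58755086-58756820, had 3100 in 3 of the lists and 1592.54 with sc52 in culture 4. None of these lay in an H3K27ac peak, all were in the JunB list and all 4 FosB lists, and none was in a silenced c-Fos list. The other two, chr2:98506257-98507802 and chr17:39979494-39986151, were in all 4 c-Fos lists of silenced neurons and not in the authors' combined list, so these high-scoring shared sites were present without KCl as well. Of the 5 shared sites, 4 were in both c-Fos shRNA lists, and chr13:45718774-45719948 was in 1 of them.

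The leading sc52-alone sites had high scores. At chr8:72735789-72737166 sc52 gave 1619.61 in culture 3 and 987.21 in culture 4, ranks 57 and 54 in its lists, with no sc7202 peak in either. The next sites, chr17:26056314-26057536 and chr2:158593172-158594124, had 1254.88 and 839.51, and 1383.09 and 791.24. The last ones, chr4:116392884-116393804 and chr8:116158342-116159996, had 953.28 and 899.77, and 1245.07 and 746.45. Each of the 5 was in 3 of the 4 silenced c-Fos lists, in both c-Fos shRNA lists and in both control shRNA lists, and none was in the JunB list. Of the 5, chr17:26056314-26057536, chr2:158593172-158594124 and chr8:116158342-116159996 lay in non-distal H3K27ac. The site at chr8:72735789-72737166 lay in an H3K27ac peak of silenced neurons alone, and that on chromosome 4 lay in none.

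The leading sc7202-alone sites stood far lower in their lists. At chr12:16896266-16897881 sc7202 gave 382.24 in culture 3 and 182.09 in culture 4, ranks 1441 and 2013, with no sc52 peak in either. The other 4 were chr3:110313906-110314822 (235.28 and 155.17), chr10:123003675-123004305 (207.53 and 169.22), chr4:23529308-23530285 (192.59 and 172.66) and chr16:42693295-42694510 (214.17 and 152.91). None of the 5 was in a silenced or a c-Fos shRNA list, each was in 1 or 2 of the sc52 control shRNA lists, and 4 of the 5 were in the JunB list. The chr4 site lay in a distal H3K27ac peak present in both conditions and held an enhancer of the authors' list, and the other 4 lay in no H3K27ac peak.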

How the data were processed

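Peak lists were analysed as the authors deposited them. The submitters' processing notes name BWA, without a version, and the mouse build mm9. Peak names in the deposited files begin with MACS, a peak caller whose version and control library went unstated. Per the labels, each AP-1 list comes from 1 library and the H3K27ac lists merge biological samples 1 and 2. The score in the deposited lists follows the negative log10 of the peak's p-value. The lowest score was 50, which stands for 1e-05, and scores served only for ranks and minimums inside 1 list. The authors' combined c-Fos sites and enhancers are deposited as positions, with no account in the labels of how they were made. Depth is unknown because the lists hold no reads. Input DNA was not analysed here.

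Libraries were grouped and paired by the labels' biological sample number, and with each antibody sample 3 gave more peaks than sample 4 in both conditions. Peaks of the 2 antibodies sharing at least 1 bp, directly or through other peaks, were joined into sites within a culture. A site or peak was in another list when they shared at least 1 bp, or when the position of an enhancer or combined site fell inside it. Differences between classes were tested over cultures by an exact two-sided sign-flip permutation test, whose smallest p with 2 cultures is 0.5. The sites named were the 5 of each class with the best mean rank, among sites of the same class in both cultures. Members and lists were chosen with earlier results of these data known. Alternatives were a score of at least 100, an overlap of 50% of the shorter peak, autosomes only, equal list length, centres within 200 bp, other FosB, shRNA or silenced lists, each culture left out, and no pairing. The score of at least 100 was asked of every AP-1 list before sites were joined, so a site could change its class. A window of 200 bp at the site's centre and the removal of sites of silenced neurons were added after the data were seen. The joining step was tested on simulated data. Genes, motifs and sequences were not analysed here, because no mm9 genome was used. Computations used scipy 1.17.1, numpy 2.4.6 and Python 3.11.15, and figures matplotlib 3.10.9.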

Additional observations from a re-analysis of the deposited data

How the results depend on the processing

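Of 137 alternative values of the tested differences, 133 kept the direction, and none of these tests could pass a threshold with 2 cultures. Direction was judged on the mean over the cultures used, so a single culture could turn without being counted. Without the sites of silenced neurons, culture 4 alone turned for JunB, for no H3K27ac peak and for the c-Fos shRNA lists among top sc52 peaks. The FosB difference of sc7202 alone minus sc52 alone turned to 5.21 points with any of the 4 FosB lists and ran from -18.3 to 3.40 when each culture was left out, being 3.40 without culture 3. The control shRNA difference turned to 4.97 in lists of the same length and to 9.74 without the sites of silenced neurons. Without the pairing (no replicate block) the log2 ratio of peak numbers was 0.81 with exact permutation p = 0.667, where the smallest possible is 0.333, and no other result could be written per library. The share of sc52 peaks in the sc7202 list moved from 72.8% to 66.6% at a score of at least 100, to 67.9% with centres within 200 bp and to 60.5% in lists of the same length. Sites of the same class in both cultures numbered 1120 (both) and 968 (sc7202 alone) at a score of at least 100, 54 (sc52 alone) without the sites of silenced neurons, and 355 (sc7202 alone) in lists of the same length. The log2 ratio of peak numbers is 0 by construction in lists of the same length and is not given. Named sites stayed in their class in both cultures in 83 of 90 combinations of site and setting. The lists hold no reads, so antibody and depth cannot be told apart in list length, and the H3K27ac and JunB lists come from other or single cultures.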
